A study of Mus musculus with 15 samples.

Results

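The p53 target genes are genes whose transcription p53, the tumour suppressor encoded by Trp53, is known to activate. They were taken from a list of 38 mouse genes, and a gene was measured where at least 1 probe set of the array was paired with its symbol and no other. That held for 34 of the 38 genes, among 22180 genes measured in all, and each of the 34 had 1 such probe set. Gadd45a, Gdf15, Ddb2 and Ccnd1os had no probe set of their own and are not analysed here. The same holds for Trp53 itself, so the gene whose floxed allele separates the carcinomas from the papillomas was not checked at the level of its RNA.

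RNA was measured on 15 arrays, 1 for each tissue sample, from choroid plexus carcinoma, choroid plexus papilloma and normal choroid plexus, with 5 arrays per group. The choroid plexus is the epithelium of the brain ventricles that secretes cerebrospinal fluid. Per the labels, the carcinomas came from Atoh1-Cre; Myc/Myc; p53fl/fl mice, the papillomas from Atoh1-Cre; Myc/Myc mice, and normal tissue from Myc/Myc; p53fl/fl mice that carried no Cre. All were on a mixed C57Bl/6 and 129 background, and the tumours were taken when animals showed signs of disease. Both tumour types therefore share the Cre driver and the Myc allele, and the carcinomas differ from the papillomas in the floxed p53 allele and in tumour type at once, which cannot be told apart here. Normal tissue carried the floxed p53 allele without Cre, so the papillomas differ from it in that allele as well as in Cre and tumour. Cre under Atoh1 control acts in the cells that express Atoh1 and their descendants, while the arrays measured whole tissue. The labels used here give no ages, do not describe the Myc construct, and do not say how completely p53 was deleted in a tumour.

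In unstressed cells p53 is kept scarce by Mdm2, a ubiquitin ligase that is itself a p53 target. DNA damage signals through the kinases Atm and Chek2, and oncogene signals through the Arf product of Cdkn2a, release p53 from Mdm2. Stabilised p53 binds response elements made of a pair of 10-base half-sites near its targets, whose products stop the cell cycle, promote cell death, repair DNA, adjust metabolism and switch p53 off again. Loss of p53 is a known feature of human choroid plexus carcinoma.

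Promoter windows from 250 bases before to 50 after the transcription start were taken from RefSeq (mouse assembly GRCm38.p6). They were found for 28 of the 34 genes and are written 5′ to 3′ along the gene. An exact p53 half-site lay in a window of 8 of the 28 genes (28.6%), namely Aen, Ccng1, Ei24, Gtse1, Mdm2, Polk, Ppm1d and Sesn1, against 9.55% of 27025 genes with a window. A gene was counted if any of its windows held a site, and some genes had more than 1 window. Counted by window, the shares were 22.0% of 41 windows against 8.36% of 32851. The half-site reads the same on both strands, so 1 search covers both. A full element, 2 half-sites with no spacer and at most 1 mismatch, lay in the windows of Ccng1 and Gtse1, 7.14% of the 28 genes, against 0.107% of all genes. By window the shares were 4.88% and 0.0883%. These matches describe the letters of the windows only. The windows of these genes are shown first, because they hold the longest matches, with the full element in capitals. It lay at positions -195 to -176 from the start of Ccng1 (chr11:40755237-40755536, minus strand) and at positions -1 to 19 in Gtse1, whose first transcribed base is 1 (chr15:85859696-85859995, plus strand).
Ccng1: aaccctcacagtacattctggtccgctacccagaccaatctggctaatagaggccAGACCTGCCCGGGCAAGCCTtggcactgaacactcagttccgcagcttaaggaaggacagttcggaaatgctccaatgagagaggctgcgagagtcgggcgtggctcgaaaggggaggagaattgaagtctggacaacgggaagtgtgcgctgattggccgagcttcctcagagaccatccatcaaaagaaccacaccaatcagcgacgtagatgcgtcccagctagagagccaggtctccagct
Gtse1: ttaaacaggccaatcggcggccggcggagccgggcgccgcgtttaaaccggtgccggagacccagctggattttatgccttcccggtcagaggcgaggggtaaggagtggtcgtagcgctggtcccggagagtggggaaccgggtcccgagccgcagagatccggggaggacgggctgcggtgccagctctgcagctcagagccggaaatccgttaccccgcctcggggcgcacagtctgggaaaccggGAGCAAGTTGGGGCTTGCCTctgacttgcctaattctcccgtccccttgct

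Aen (chr7:78895677-78895976, plus strand) and Mdm2 (chr10:117710709-117711008, minus strand) each held a single half-site, in capitals. They are shown because their RNAs moved in opposite directions in both tumour types. That of Aen lay at positions 11 to 20 in the window shown, and the same site lay at positions -121 to -112 in the other window of Aen. That of Mdm2 lay at positions -186 to -177.
Aen: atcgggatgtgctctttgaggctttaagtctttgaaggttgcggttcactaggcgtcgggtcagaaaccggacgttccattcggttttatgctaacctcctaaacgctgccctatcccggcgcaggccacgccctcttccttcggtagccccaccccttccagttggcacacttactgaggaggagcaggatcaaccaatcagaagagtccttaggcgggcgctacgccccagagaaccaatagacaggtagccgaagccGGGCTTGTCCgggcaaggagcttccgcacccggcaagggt
Mdm2: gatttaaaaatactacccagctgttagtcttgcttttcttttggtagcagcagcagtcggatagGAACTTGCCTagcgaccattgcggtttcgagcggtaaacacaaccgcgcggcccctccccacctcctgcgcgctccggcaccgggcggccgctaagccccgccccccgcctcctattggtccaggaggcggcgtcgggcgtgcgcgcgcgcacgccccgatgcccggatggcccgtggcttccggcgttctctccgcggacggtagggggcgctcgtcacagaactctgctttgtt

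Psrc1 (chr3:108383554-108383853, plus strand) and Eda2r (chrX:97377160-97377459, minus strand), the markers of the list, are shown because they had the largest rises in papilloma. No exact half-site was found in either window, so no letter is in capitals.
Psrc1: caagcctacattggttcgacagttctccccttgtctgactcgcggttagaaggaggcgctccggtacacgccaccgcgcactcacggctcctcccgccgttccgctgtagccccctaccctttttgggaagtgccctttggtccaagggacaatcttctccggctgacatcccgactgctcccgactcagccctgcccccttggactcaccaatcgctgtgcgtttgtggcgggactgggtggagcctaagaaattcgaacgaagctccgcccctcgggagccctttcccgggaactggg
Eda2r: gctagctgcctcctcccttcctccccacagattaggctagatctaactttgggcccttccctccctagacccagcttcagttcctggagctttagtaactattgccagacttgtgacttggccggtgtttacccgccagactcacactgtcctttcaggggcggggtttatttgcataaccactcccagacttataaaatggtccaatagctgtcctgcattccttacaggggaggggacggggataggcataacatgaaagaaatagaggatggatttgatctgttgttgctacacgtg

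All levels below are deposited log2 values, and all differences are log2 differences with the standard error (SE) of the fit. Values of different genes are not compared in level, since each comes from its own probe set. The tests are limma's moderated tests, two-sided, with p-values adjusted by Benjamini-Hochberg over the 22180 genes and a threshold of 0.05. Array medians lay between 6.79 and 6.90. Normal arrays 2 to 5 carried both Xist (10.69 to 12.48) and Y-linked transcripts (mean of Uty, Eif2s3y and Kdm5d 7.72 to 9.74), whereas normal array 1 and every tumour array carried one or the other. The series describes tissue from different mice and gives no pooling. Differences from normal tissue were therefore also computed against normal array 1 alone, whose spread was then assumed to be that of the other groups.

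In the carcinomas, compared with the papillomas, 16 of the 34 p53 target genes were lower and 1, Pltp, was higher. Over all genes, 11.4% passed this test in either direction, with 5.17% lower and 6.24% higher. The median difference over the 34 genes was -0.41, against -0.03 over all genes. For 14 of the 34 genes every carcinoma array lay below every papilloma array, and for none did every carcinoma array lie above, while 7.90% of all genes had arrays that did not overlap in either direction. In bulk tissue, fewer cells that express a gene and less RNA of it per cell cannot be told apart.

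In the papillomas, compared with normal tissue, 16 of the 34 genes rose and 6 fell, with a median difference of 0.32 against 0.01 over all genes. The share of all genes past the threshold was 33.2%, with 17.0% higher and 16.3% lower. The arrays did not overlap for 25 of the 34 genes (19 higher, 6 lower), against 32.1% of all genes. Against normal array 1 alone, 9 rose and 2 fell, and all 34 differences had the same direction as with 5 normal arrays.

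In the carcinomas, compared with normal tissue, 13 of the 34 genes rose and 14 fell, with a median difference of -0.09 against -0.02 over all genes. Of all genes 37.9% passed, 18.7% higher and 19.2% lower. The arrays did not overlap for 21 of the 34 genes (10 higher, 11 lower), against 29.9% of all genes. Against normal array 1 alone, 3 rose and 5 fell, and 33 of 34 differences kept their direction. Both comparisons with normal tissue share the normal arrays.

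The papillomas had the highest group mean for 21 of the 34 genes, normal tissue for 10 and the carcinomas for 3. The lowest mean was in the carcinomas for 15 genes, in the papillomas for 4 and in normal tissue for 15. Across the 3 comparisons, 31 genes passed the threshold at least once by the tests described above, and Rprm, Tigar and Xpc did not. Aen, Eda2r, Psrc1, Sesn2, Trp53inp1 and Zmat3 were higher in both tumour types than in normal tissue and lower in carcinoma than in papilloma. Ccng1, Dcxr and Phlda3 were below normal in carcinoma and above normal in papilloma. Of these calls, the rise of Ccng1 in papilloma and the fall of Dcxr in carcinoma were lost when some single arrays were left out.

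**Figure D1:**
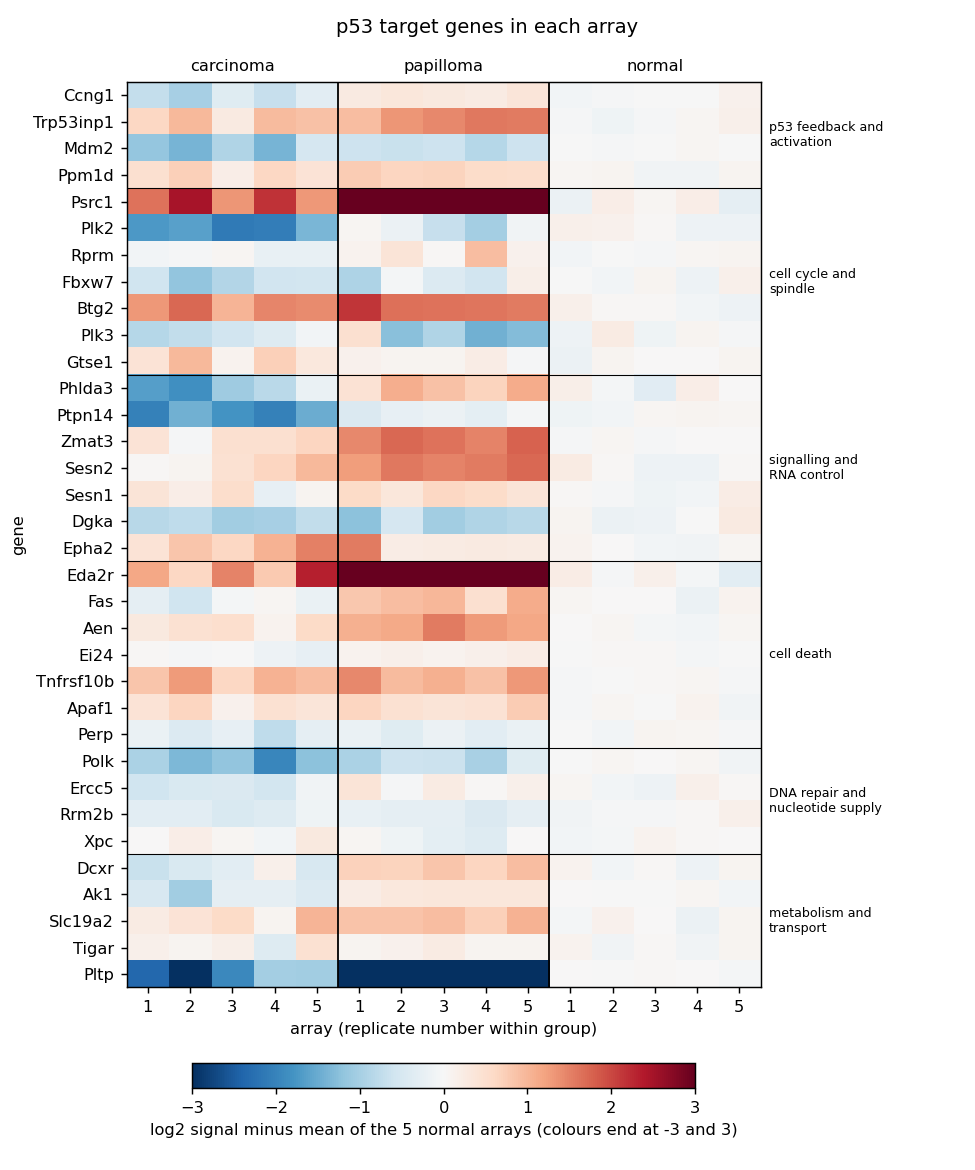
Heat map of the 34 p53 target genes (rows, grouped by role) in the 15 arrays (columns: carcinoma, papilloma, normal), coloured by the deposited log2 value minus the gene's mean over the 5 normal arrays, with colours ending at -3 and 3. Psrc1 and Eda2r are the strongest rises in the papilloma columns, and Pltp is below normal in all 10 tumour arrays.

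Of the 4 genes that act on p53 itself, 2 were lower in carcinoma than in papilloma. Against normal tissue, 3 rose in papilloma, and 2 rose and 2 fell in carcinoma. Of all genes, 5.17% were lower in carcinoma than in papilloma. Against normal tissue, 17.0% of all genes rose in papilloma, and 18.7% rose and 19.2% fell in carcinoma. Mdm2 read 9.79, 9.55, 10.05, 9.55 and 10.44 in the carcinomas, 10.34, 10.28, 10.34, 10.09 and 10.33 in the papillomas, and 10.93, 10.92, 10.94, 11.01 and 10.95 in normal tissue. Every tumour array was below every normal array. Carcinoma arrays 1 to 4 were below every papilloma, and carcinoma array 5 was above every papilloma. Mdm2 was 2.10-fold lower in carcinoma than in normal tissue (-1.07, SE 0.14, adjusted p = 9.33e-06) and 1.59-fold lower in papilloma (-0.67, adjusted p = 0.00095). Its difference between carcinoma and papilloma was -0.40 (95% interval -0.69 to -0.11, adjusted p = 0.069), which became -0.54 (adjusted p = 0.00205) without carcinoma array 5.

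Ccng1, cyclin G1, which directs a phosphatase to Mdm2, averaged 12.45 ± 0.28 in carcinoma, 13.37 ± 0.05 in papilloma and 13.07 ± 0.08 in normal tissue (SD, n = 5 each). It was 1.89-fold lower in carcinoma than in papilloma (-0.92, SE 0.11, adjusted p = 8.81e-05) and 1.53-fold lower than in normal tissue (-0.62). Its rise of 0.30 in papilloma over normal tissue (adjusted p = 0.0414) did not pass with 1 array left out, for each papilloma and for normal arrays 1 to 4 (differences of 0.28 to 0.31, adjusted p 0.057 to 0.0886). Trp53inp1, a stress-induced protein that promotes p53 activity, averaged 9.84 ± 0.30 in carcinoma, 10.46 ± 0.27 in papilloma and 9.10 ± 0.11 in normal tissue. It rose by 1.36 in papilloma and by 0.74 in carcinoma, and was lower in carcinoma than in papilloma by -0.62 (adjusted p = 0.00967). Ppm1d, the Wip1 phosphatase that turns p53 and Atm signalling off, rose by 0.63 in papilloma and 0.49 in carcinoma. Its difference between the tumour types was -0.14 (95% interval -0.34 to 0.05).

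Of the 7 genes of the cell cycle and spindle, Psrc1 and Plk2 were lower in carcinoma than in papilloma, against 5.17% of all genes. Psrc1, a spindle protein that binds microtubules, read 8.79, 9.63, 8.46, 9.32 and 8.44 in the carcinomas, 10.82, 10.95, 11.27, 11.21 and 11.35 in the papillomas, and 6.97, 7.36, 7.20, 7.34 and 6.88 in normal tissue. The 3 groups did not overlap, with the carcinomas in between. Psrc1 was 4.57-fold lower in carcinoma than in papilloma (-2.19, SE 0.20, adjusted p = 1.05e-05). It was 15.7-fold higher in papilloma than in normal tissue (3.97, SE 0.20, adjusted p = 5.98e-10) and 3.43-fold higher in carcinoma (1.78, SE 0.20, adjusted p = 3.51e-06).

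Plk2, a polo-like kinase induced by stress, read 8.87, 8.96, 8.47, 8.51 and 9.22 in the carcinomas, 10.65, 10.42, 9.90, 9.58 and 10.49 in the papillomas, and 10.74, 10.72, 10.63, 10.43 and 10.43 in normal tissue. All carcinomas lay below all other arrays, and the papilloma and normal ranges overlapped. Plk2 was 2.65-fold lower in carcinoma than in papilloma (-1.41, SE 0.19, adjusted p = 0.000248) and 3.45-fold lower than in normal tissue (-1.79, SE 0.19, adjusted p = 1.55e-06). Papilloma against normal gave -0.38 (95% interval -0.79 to 0.02).

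Plk3, a related kinase, read 8.60, 8.70, 8.88, 9.06 and 9.37 in the carcinomas, 9.94, 8.18, 8.55, 8.01 and 8.15 in the papillomas, and 9.29, 9.69, 9.32, 9.53 and 9.41 in normal tissue. Papilloma array 1 was the highest of all 15 arrays, and the other papillomas were the lowest. Plk3 fell in papilloma against normal tissue (-0.88, SE 0.28, adjusted p = 0.0242), a call lost without papilloma array 2, 4 or 5 or normal array 2 (-0.82 to -0.74, adjusted p 0.0578 to 0.0683). Its difference between carcinoma and papilloma was 0.35 (95% interval -0.25 to 0.96), and 0.70 (adjusted p = 0.00933) without papilloma array 1. Without that array its difference between carcinoma and normal tissue, -0.53, also passed (adjusted p = 0.00839, against 0.167 with all arrays).

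Btg2, an antiproliferative protein that promotes the shortening of mRNA tails, read 10.76, 11.19, 10.49, 10.94 and 10.88 in the carcinomas, 11.62, 11.13, 11.10, 11.09 and 11.03 in the papillomas, and 9.63, 9.52, 9.50, 9.38 and 9.33 in normal tissue. All 10 tumour arrays were above all normal arrays. It was 2.6-fold higher in carcinoma (1.38, SE 0.13, adjusted p = 3.95e-07) and 3.30-fold higher in papilloma (1.72, SE 0.13, adjusted p = 4.17e-08) than in normal tissue. The tumour types overlapped, and their difference was -0.34 (95% interval -0.62 to -0.07, adjusted p = 0.108), which passed without carcinoma array 2 (-0.43, adjusted p = 0.0436).

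Gtse1, a microtubule-associated protein of late cell cycle phases that also moves p53 out of the nucleus, was higher in carcinoma than in normal tissue (0.50, adjusted p = 0.00549). Between carcinoma and papilloma it differed by 0.40 (95% interval 0.13 to 0.67, adjusted p = 0.0578), which passed without carcinoma array 3 (0.50, adjusted p = 0.0113) or 5 (0.45, adjusted p = 0.0465). Fbxw7, which marks Myc and cyclin E for degradation, was lower in carcinoma than in normal tissue (-0.75, adjusted p = 0.00255). It differed by -0.36 between papilloma and normal tissue (95% interval -0.73 to 0.01). The Fbxw7 difference between papilloma and normal tissue passed without papilloma array 5 (-0.50, adjusted p = 0.0279), and that between the tumour types, -0.39, passed without papilloma array 1 (-0.54, adjusted p = 0.0435). Rprm, a mediator of arrest before mitosis, passed in no comparison by the tests described above. Its differences of -0.42 between the tumour types and 0.32 between papilloma and normal tissue passed without papilloma array 3 (-0.49 and 0.39, adjusted p = 0.0406 and 0.0449), and the first also without papilloma array 1 (-0.47, adjusted p = 0.0499). With all arrays, both passed after quantile normalization (adjusted p = 0.0422 and 0.0408) and with a common median (adjusted p = 0.0464 and 0.042). The first also passed with dim genes left out (adjusted p = 0.0393). Rprm was highest in papilloma arrays 4 (8.21) and 2 (7.69). These 2 arrays also had the highest means of 8 neuronal markers among the papillomas (8.81 and 9.75, against 7.25 to 7.58 in the other papillomas). Normal arrays had neuronal means of 8.39 to 8.91, with Rprm at 7.205 to 7.37. The part of neuronal tissue in the Rprm values was not tested.

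Markers of dividing cells moved with these comparisons. All 9 measured mitotic genes were higher in carcinoma than in papilloma and higher in each tumour type than in normal tissue. Of all genes, 6.24% were higher in carcinoma than in papilloma, and 18.7% in carcinoma and 17.0% in papilloma over normal tissue. The mean of the 9 mitotic genes ran from 9.75 to 11.07 over the carcinomas, 8.53 to 9.05 over the papillomas and 7.11 to 7.25 over normal arrays. Among the carcinomas Psrc1 was highest in arrays 2 and 4, which also had the highest mitotic means (11.07 and 10.74). Psrc1 was lower in carcinoma than in papilloma while these markers were higher, and their part in the differences of the p53 target genes was not tested.

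**Figure D2:**
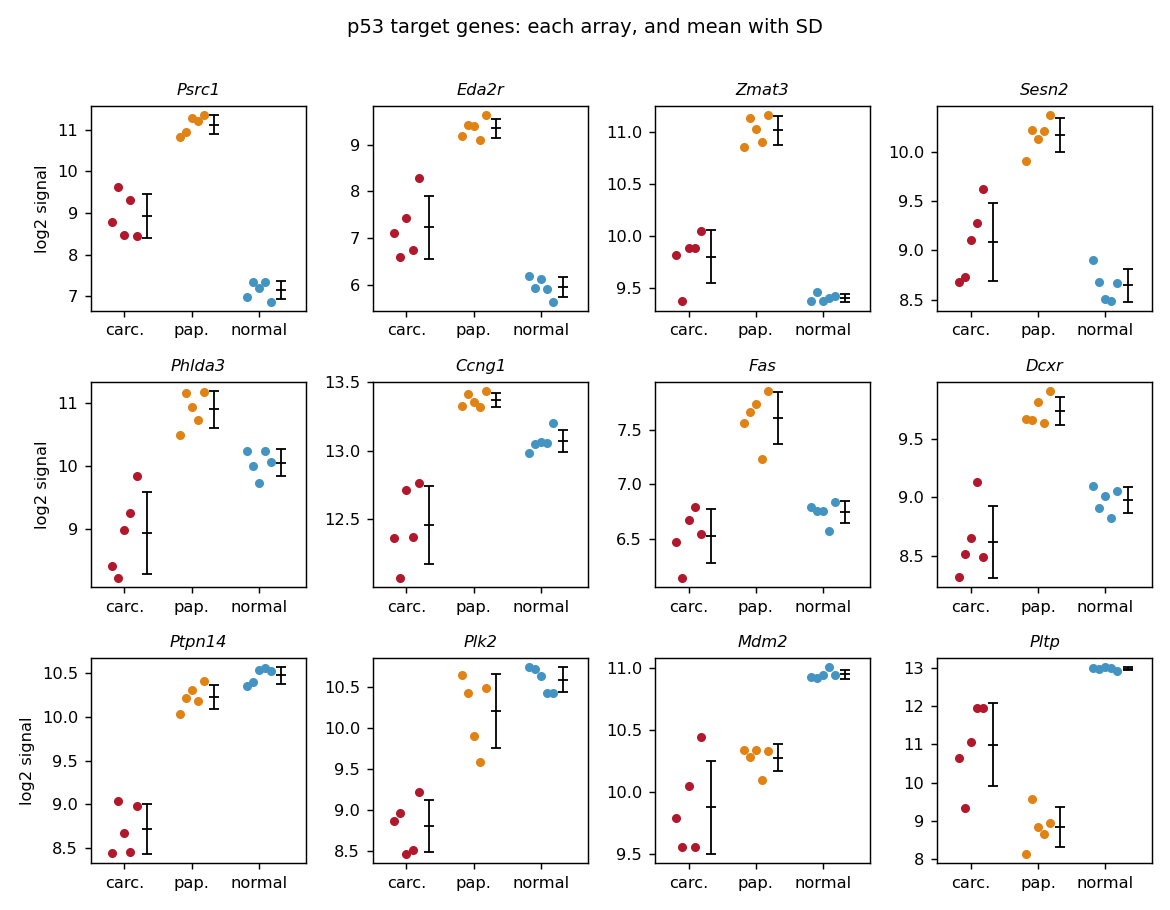
Deposited log2 value of 12 p53 target genes in each array (points), by group (carcinoma, papilloma, normal), with the mean and SD of 5 arrays. Psrc1 and Eda2r separate all 3 groups, and Plk2 and Ptpn14 are low in the carcinomas alone, where the array ranges lie below both other groups.

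Of the 7 genes of signalling and RNA control, Phlda3, Ptpn14, Zmat3 and Sesn2 were lower in carcinoma than in papilloma, against 5.17% of all genes. Phlda3, which competes with the kinase Akt for membrane lipids, read 8.42, 8.23, 8.99, 9.25 and 9.85 in the carcinomas, 10.50, 11.16, 10.95, 10.73 and 11.18 in the papillomas, and 10.25, 9.997, 9.73, 10.25 and 10.07 in normal tissue. The papillomas lay above all other arrays, and of the carcinomas array 5 alone reached into the normal range. Phlda3 was 3.88-fold lower in carcinoma than in papilloma (-1.96, SE 0.25, adjusted p = 0.000142). It was 2.16-fold lower in carcinoma than in normal tissue (-1.11, adjusted p = 0.00172) and 1.79-fold higher in papilloma than in normal tissue (0.84, adjusted p = 0.0136).

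Ptpn14, a phosphatase that restrains the growth regulator Yap, read 8.45, 9.04, 8.68, 8.46 and 8.98 in the carcinomas, 10.04, 10.22, 10.31, 10.18 and 10.41 in the papillomas, and 10.35, 10.40, 10.54, 10.56 and 10.53 in normal tissue. The carcinomas were apart from all other arrays, and papilloma array 5 reached into the normal range. Ptpn14 was 2.85-fold lower in carcinoma than in papilloma (-1.51, SE 0.12, adjusted p = 2.05e-06) and 3.37-fold lower than in normal tissue (-1.75, SE 0.12, adjusted p = 9.58e-09). In papilloma it differed from normal tissue by -0.24 (95% interval -0.49 to 0.00).

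Zmat3, a zinc-finger protein that binds RNA, read 9.82, 9.38, 9.89, 9.88 and 10.05 in the carcinomas, 10.86, 11.14, 11.04, 10.90 and 11.17 in the papillomas, and 9.37, 9.46, 9.37, 9.41 and 9.42 in normal tissue. The papillomas were apart from all other arrays, and carcinoma array 2 lay within the normal range. Zmat3 was 2.33-fold lower in carcinoma than in papilloma (-1.22, SE 0.11, adjusted p = 5.63e-06) and 3.06-fold higher in papilloma than in normal tissue (1.61, adjusted p = 9.05e-09). The rise in carcinoma was 0.40 (adjusted p = 0.0065).

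Sesn2, a sestrin, which restrains the growth kinase complex mTORC1, read 8.67, 8.73, 9.10, 9.28 and 9.63 in the carcinomas, 9.91, 10.23, 10.14, 10.21 and 10.38 in the papillomas, and 8.90, 8.68, 8.50, 8.48 and 8.67 in normal tissue. The papillomas again lay above all others, and the carcinoma and normal ranges overlapped. Sesn2 was 2.13-fold lower in carcinoma than in papilloma (-1.09, SE 0.16, adjusted p = 0.000397) and 2.88-fold higher in papilloma than in normal tissue (1.53, adjusted p = 1.31e-06). Its rise in carcinoma, 0.44 (adjusted p = 0.0377), was lost without carcinoma array 3, 4 or 5 or any of normal arrays 2 to 5 (0.30 to 0.44, adjusted p 0.0595 to 0.0951). Sesn1, its relative, rose in papilloma (0.50, adjusted p = 0.00438). Sesn1 differed by 0.19 between carcinoma and normal tissue and by -0.31 between the tumour types, and these passed without carcinoma array 4 (0.30, adjusted p = 0.0292) and without carcinoma array 3 (-0.39, adjusted p = 0.0415), each in turn.

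Epha2, an ephrin receptor kinase, read 6.85, 7.29, 7.07, 7.49 and 7.96 in the carcinomas, 8.00, 6.68, 6.70, 6.73 and 6.69 in the papillomas, and 6.55, 6.47, 6.38, 6.36 and 6.51 in normal tissue. Papilloma array 1 was again apart from the other papillomas. Epha2 rose in carcinoma over normal tissue (0.88, SE 0.24, adjusted p = 0.00772). Between carcinoma and papilloma it differed by 0.37 (95% interval -0.14 to 0.88), and by 0.63 (adjusted p = 0.0234) without papilloma array 1.

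Dgka, a diacylglycerol kinase, read 7.49, 7.57, 7.29, 7.32 and 7.60 in the carcinomas, 7.09, 7.82, 7.28, 7.41 and 7.49 in the papillomas, and 8.41, 8.15, 8.16, 8.32 and 8.59 in normal tissue. All tumour arrays were below all normal arrays. It was 1.83-fold lower in carcinoma (-0.87, adjusted p = 3.33e-05) and 1.88-fold lower in papilloma (-0.91, adjusted p = 2.75e-05) than in normal tissue, and the tumour types differed by 0.04 (95% interval -0.23 to 0.30).

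Of the 7 genes of cell death, 4 were lower in carcinoma than in papilloma and 5 rose in papilloma over normal tissue. Of all genes, 5.17% were lower in carcinoma than in papilloma and 17.0% rose in papilloma. Eda2r, a receptor of the tumour necrosis factor family that binds ectodysplasin A2, read 7.11, 6.58, 7.43, 6.74 and 8.28 in the carcinomas, 9.19, 9.42, 9.40, 9.10 and 9.63 in the papillomas, and 6.19, 5.93, 6.12, 5.91 and 5.64 in normal tissue. The 3 groups did not overlap. Eda2r was 4.34-fold lower in carcinoma than in papilloma (-2.12, SE 0.24, adjusted p = 7.43e-05). It was higher than in normal tissue by 3.39 in papilloma (SE 0.24, adjusted p = 2.6e-08) and by 1.27 in carcinoma (SE 0.24, adjusted p = 0.000518). No fold is given for these, because the normal values lay below the array medians and the deposited values do not show whether they were above background. Eda2r in carcinoma arrays 2 and 4 also lay below the medians of those arrays (6.85 and 6.83), so the 4.34-fold difference shares this limit. Eda2r lies on chromosome X. Among the 3 carcinomas and 2 papillomas with Xist the tumour types differed by -1.81, and among the 2 carcinomas and 3 papillomas with Y-linked transcripts by -2.49.

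Tnfrsf10b, the mouse receptor for the death ligand Trail, read 10.70, 11.16, 10.51, 10.92 and 10.80 in the carcinomas, 11.32, 10.82, 10.94, 10.75 and 11.19 in the papillomas, and 9.83, 9.86, 9.91, 9.94 and 9.84 in normal tissue. All tumour arrays were above all normal arrays, and the tumour types overlapped. It was 1.92-fold higher in carcinoma (0.94, adjusted p = 1.25e-05) and 2.18-fold higher in papilloma (1.13, adjusted p = 2.31e-06), and the tumour types differed by -0.18 (95% interval -0.44 to 0.07).

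Fas, another death receptor, averaged 6.53 ± 0.25 in carcinoma, 7.61 ± 0.24 in papilloma and 6.74 ± 0.10 in normal tissue. It was lower in carcinoma than in papilloma (-1.08, adjusted p = 7.43e-05) and higher in papilloma than in normal tissue (0.86, adjusted p = 4.48e-05), with carcinoma and normal means below the array medians. Carcinoma against normal gave -0.22 (95% interval -0.48 to 0.05). Aen, a nuclease that promotes apoptosis and whose window holds the half-site above, averaged 8.36 ± 0.19 in carcinoma, 9.21 ± 0.19 in papilloma and 7.97 ± 0.07 in normal tissue. It was lower in carcinoma than in papilloma (-0.85, adjusted p = 8.81e-05) and rose by 1.24 in papilloma and 0.39 in carcinoma.

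Apaf1, the scaffold that activates caspases after release of cytochrome c, rose by 0.40 in carcinoma and 0.54 in papilloma. The difference between the tumour types for Apaf1 was -0.14 (95% interval -0.34 to 0.07). Perp, a membrane protein of desmosomes and cell death, was lower in carcinoma than in normal tissue (-0.38, adjusted p = 0.00495). In papilloma Perp gave -0.25 (adjusted p = 0.0532), which passed without carcinoma array 1 or 4 (adjusted p = 0.0493 and 0.00549). It also passed with only the papilloma and normal arrays in the fit (adjusted p = 0.0045), and under 8 of the 26 alternatives listed below. Ei24, a membrane protein of the endoplasmic reticulum, was lower in carcinoma than in papilloma by -0.23 (adjusted p = 0.0279), a call lost without carcinoma array 5 or papilloma array 2, 4 or 5 (-0.23 to -0.19, adjusted p 0.0544 to 0.0695).

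Of the 4 genes of DNA repair and nucleotide supply, 3 fell in carcinoma and 2 in papilloma against normal tissue. Of all genes, 19.2% and 16.3% fell in these comparisons. In carcinoma 2 of the 4 were lower than in papilloma, against 5.17% of all genes. Polk, a polymerase that copies past damaged bases, read 8.95, 8.55, 8.71, 7.93 and 8.65 in the carcinomas, 8.94, 9.27, 9.24, 8.91 and 9.53 in the papillomas, and 9.88, 9.94, 9.90, 9.94 and 9.80 in normal tissue. Every tumour array was below every normal array, and carcinoma array 1 reached into the papilloma range. Polk was 1.54-fold lower in carcinoma than in papilloma (-0.62, adjusted p = 0.0176), 2.52-fold lower in carcinoma than in normal tissue (-1.33, adjusted p = 4.6e-06) and 1.64-fold lower in papilloma than in normal tissue (-0.71, adjusted p = 0.00199). With only the carcinomas and papillomas in the fit, the difference between them did not pass (adjusted p = 0.0755).

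Ercc5, an endonuclease of nucleotide excision repair, was lower in carcinoma than in papilloma (-0.60, adjusted p = 0.00156) and than in normal tissue (-0.43, adjusted p = 0.00317). Rrm2b, the stress-induced subunit of ribonucleotide reductase, was lower in carcinoma (-0.32) and in papilloma (-0.30) than in normal tissue, with -0.02 between the tumour types (95% interval -0.18 to 0.13). Xpc, which recognises damage in nucleotide excision repair, gave 0.10 and -0.14 in carcinoma and papilloma against normal tissue, and 0.24 between the tumour types (95% interval 0.04 to 0.45, adjusted p = 0.123).

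The 5 genes of metabolism and transport included the one gene that was higher in carcinoma than in papilloma. Pltp, which moves phospholipids between lipoproteins, read 10.65, 9.34, 11.06, 11.97 and 11.95 in the carcinomas, 8.13, 9.58, 8.83, 8.64 and 8.93 in the papillomas, and 12.99, 12.98, 13.03, 13.01 and 12.94 in normal tissue. Both tumour types were below all normal arrays, and carcinoma array 2 lay below papilloma array 2. Pltp was 4.5-fold higher in carcinoma than in papilloma (2.17, SE 0.39, adjusted p = 0.00207). It was 4.0-fold lower in carcinoma (-2.00, SE 0.39, adjusted p = 0.000661) and 18-fold lower in papilloma (-4.17, SE 0.39, adjusted p = 5.11e-07) than in normal tissue. Its SD in carcinoma, 1.09, was the widest of the 34 genes in any group. The mean of the multiciliated markers in carcinoma arrays 1 to 5 was 8.14, 7.24, 8.80, 8.20 and 8.00, lowest in array 2 as for Pltp and highest in array 3, where Pltp was mid-range. Their part in the Pltp difference was not tested.

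Dcxr, a carbonyl and sugar reductase, averaged 8.62 ± 0.31 in carcinoma, 9.73 ± 0.12 in papilloma and 8.98 ± 0.11 in normal tissue. It was 2.16-fold lower in carcinoma than in papilloma (-1.11, adjusted p = 5.5e-05) and rose by 0.76 in papilloma over normal tissue. Its fall of -0.36 in carcinoma against normal tissue (adjusted p = 0.0291) was lost without carcinoma array 1, 2 or 5 or normal array 1, 3 or 5 (-0.35 to -0.28, adjusted p 0.0562 to 0.0833).

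Ak1, an adenylate kinase, was lower in carcinoma than in papilloma (-0.81, adjusted p = 0.000413) and than in normal tissue (-0.49, adjusted p = 0.00303). In papilloma Ak1 gave 0.31 against normal tissue (adjusted p = 0.0501), which passed without carcinoma array 2, 3 or 4 (adjusted p 0.000763 to 0.0443). It also passed with only the papilloma and normal arrays in the fit (adjusted p = 0.00042), and under 10 of the 26 alternatives listed below. Slc19a2, a thiamine transporter, rose by 0.46 in carcinoma and 0.88 in papilloma. The tumour types differed for Slc19a2 by -0.42 (95% interval -0.71 to -0.12, adjusted p = 0.0641), and by -0.56 (adjusted p = 0.00277) without carcinoma array 5. Tigar, a phosphatase that lowers glycolysis, gave 0.10 in carcinoma (95% interval -0.15 to 0.34) and 0.12 in papilloma (95% interval -0.12 to 0.37) against normal tissue, and -0.02 between them (95% interval -0.27 to 0.22).

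**Figure D3:**
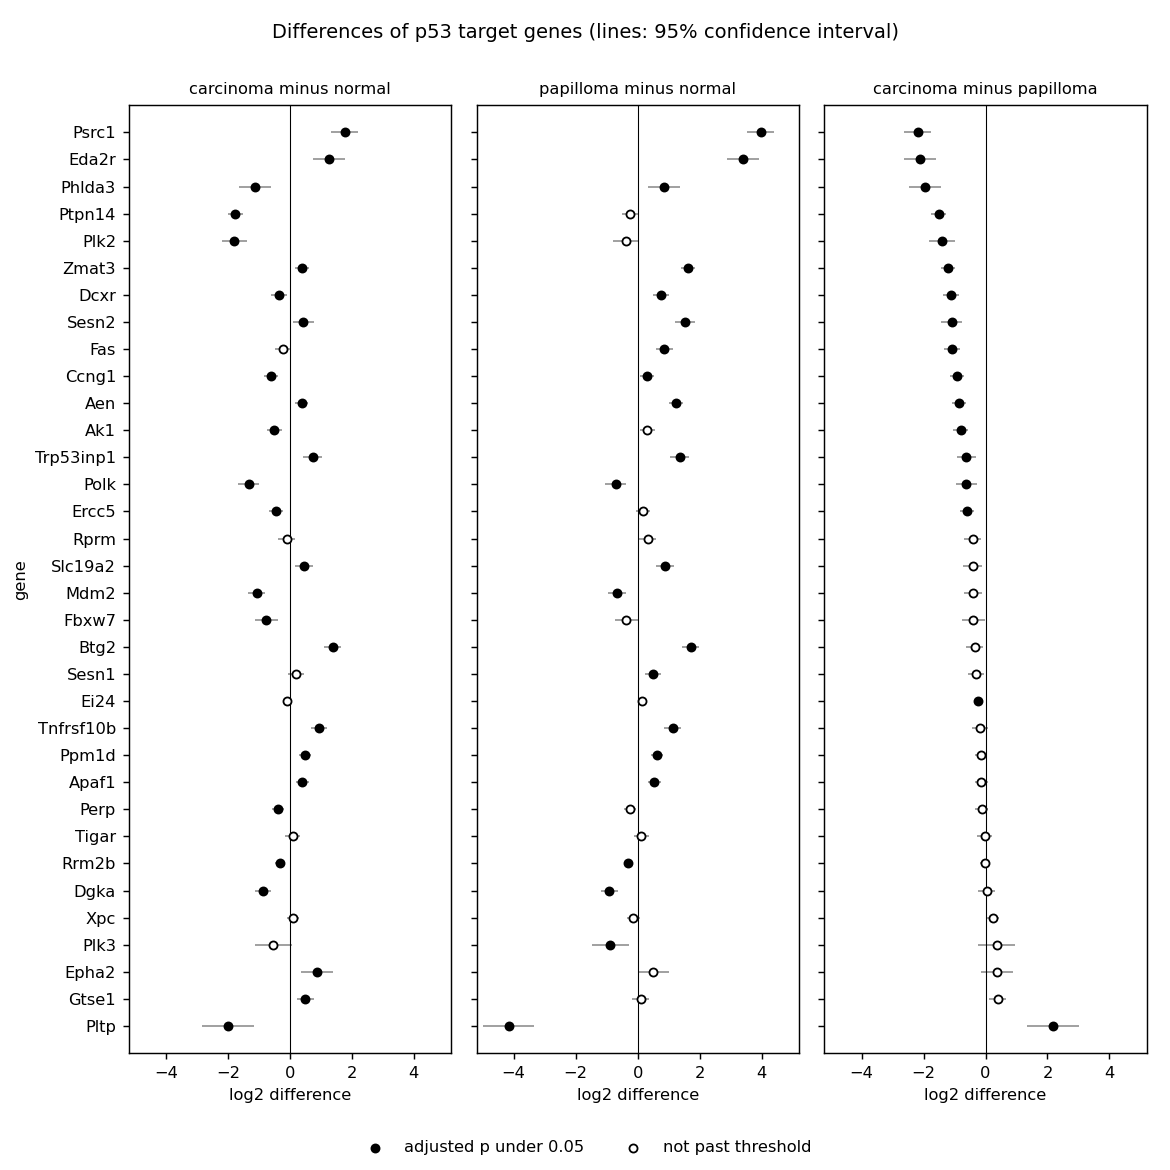
Log2 difference of each of the 34 p53 target genes with its 95% interval in 3 panels (carcinoma minus normal, papilloma minus normal, carcinoma minus papilloma), with genes past the threshold marked. In the carcinoma minus papilloma panel 16 genes lie below 0 past the threshold and Pltp alone lies above it.

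The arrays of a group did not vary alike. The median SD of the 34 genes was 0.29 in carcinoma, 0.18 in papilloma and 0.10 in normal tissue, against 0.19, 0.15 and 0.12 over all genes. Carcinoma array 5 was the highest of its group for 17 of the 34 genes, among them Eda2r (8.28), Phlda3 (9.85) and Mdm2 (10.44). It also had the lowest Mki67, a marker of dividing cells, of the carcinomas (10.11). Without this array 17 of the 34 genes were lower and 2 higher in carcinoma than in papilloma. Separating the tumour arrays by Xist and Y-linked transcripts, all 17 genes that passed between the tumour types kept their direction in both sets. These genes were picked from the same arrays. For 14 of them the tumour types did not overlap, so any split had to keep the direction. The part of sex in the differences was not tested.

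A further 35 p53 targets were listed beside these, of which 29 were measured. In carcinoma against papilloma 6 were higher and 4 lower, in papilloma against normal tissue 11 rose and 5 fell, and in carcinoma against normal tissue 11 rose and 8 fell. Of all genes, 6.24% were higher and 5.17% lower between the tumour types, 17.0% and 16.3% in papilloma against normal tissue, and 18.7% and 19.2% in carcinoma against normal tissue. The medians of the 29 targets were 0.03, 0.08 and 0.08. Cdkn1a, the cyclin-dependent kinase inhibitor p21, read 9.22, 9.56, 9.91, 9.80 and 10.80 in the carcinomas, 12.80, 12.74, 12.74, 12.62 and 12.73 in the papillomas, and 11.01, 10.58, 10.56, 10.59 and 10.56 in normal tissue. All papillomas were above, and all carcinomas but array 5 were below, the normal range. Cdkn1a was 7.30-fold lower in carcinoma than in papilloma (-2.87, SE 0.21, adjusted p = 1.46e-06), 4.19-fold higher in papilloma than in normal tissue (2.07, adjusted p = 1.03e-06) and 1.74-fold lower in carcinoma than in normal tissue (-0.80, adjusted p = 0.00571).

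Trp53cor1, the long noncoding RNA gene beside Cdkn1a, was 3.04-fold lower in carcinoma than in papilloma (-1.61, adjusted p = 6.19e-06) and rose by 1.37 in papilloma. Carcinoma against normal tissue gave -0.24 for Trp53cor1 (95% interval -0.53 to 0.06). Klhl26 was lower in carcinoma than in papilloma (-0.73) and than in normal tissue (-0.92), and Arap2 was lower in carcinoma than in normal tissue (-0.87). Bbc3, the death-promoting protein Puma, rose in carcinoma (1.11) and in papilloma (1.01) over normal tissue, with 0.10 between them (95% interval -0.13 to 0.33). Targets that were higher in carcinoma than in papilloma included Ckap2 (0.74), a spindle protein, Pidd1 (0.65), a death-domain protein, and Pcna (0.51), the sliding clamp of DNA replication. Pidd1 did not pass with only the carcinomas and papillomas in the fit (adjusted p = 0.0601). In papilloma, Tnfaip8, Trp53i11 and Cd82 had the largest falls of the list against normal tissue (-0.81, -0.63 and -0.59).

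Of 33 listed regulators of p53, 31 were measured. In carcinoma against papilloma 5 were higher and 4 lower, in papilloma against normal tissue 11 rose and 5 fell, and in carcinoma against normal tissue 12 rose and 7 fell, to be read against the same shares of all genes. Chek2 and Chek1, checkpoint kinases, were higher in carcinoma than in papilloma (1.11 and 0.60). Against normal tissue Chek2 rose by 2.27 in carcinoma and 1.16 in papilloma, and Chek1 by 1.73 and 1.12. Atm rose by 1.38 in carcinoma and 1.23 in papilloma, with 0.15 between them (95% interval -0.04 to 0.33). Mdm4, the relative of Mdm2 that holds p53 inactive, passed in no comparison with all arrays. Its difference of -0.24 between papilloma and normal tissue passed without papilloma array 5 (-0.35, adjusted p = 0.0452).

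Cdkn2a, whose locus encodes Arf and the kinase inhibitor p16, read 9.53, 10.80, 8.09, 7.84 and 10.15 in the carcinomas, 7.78, 7.67, 7.82, 7.92 and 7.75 in the papillomas, and 7.83, 7.64, 7.64, 7.66 and 7.79 in normal tissue. Carcinoma arrays 1, 2 and 5 were high, while array 4 lay within the papilloma range. The rise in carcinoma over normal tissue was 1.57 (SE 0.42, adjusted p = 0.00702). Against papilloma it was 1.495 (adjusted p = 0.0306), a call lost without carcinoma array 1, 2 or 5 and without each of the papillomas in turn (differences of 1.12 to 1.53, adjusted p 0.0514 to 0.0716). Trp73, a relative of p53 that is also needed for multiciliated cells, fell by 1.07 in carcinoma and by 1.87 in papilloma against normal tissue, and was higher in carcinoma than in papilloma (0.80, adjusted p = 0.0178). With only the carcinomas and papillomas in the fit, neither the Trp73 difference between them (adjusted p = 0.0726) nor that of Cdkn2a (adjusted p = 0.107) passed.

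**Figure D4:**
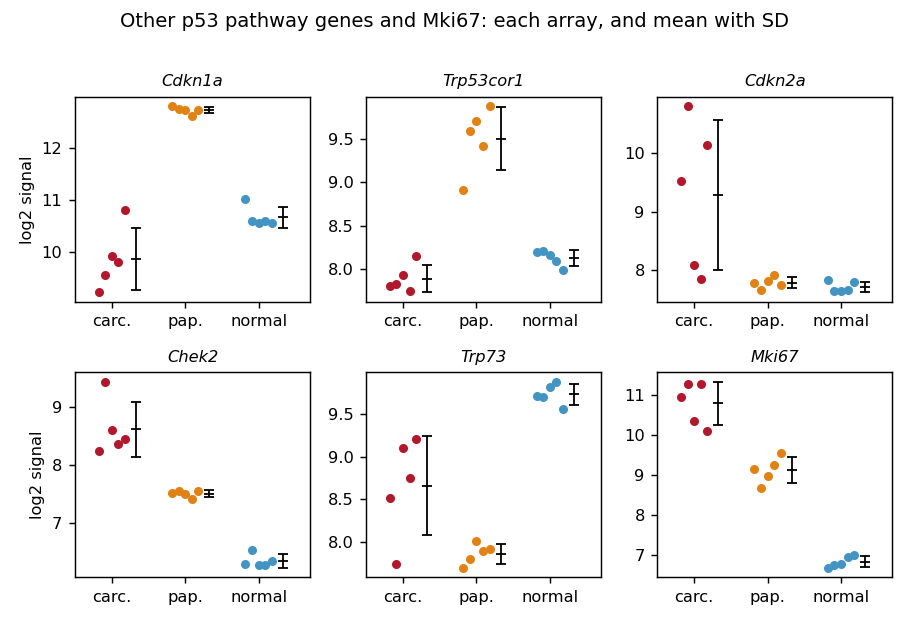
Deposited log2 value in each array (points), with mean and SD of 5 arrays, of Cdkn1a, Trp53cor1, Cdkn2a, Chek2, Trp73 and Mki67 by group (carcinoma, papilloma, normal). Cdkn1a is above normal in all papillomas, and Cdkn2a is high in 3 of the 5 carcinomas.

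Cell makeup differed between the groups. All 9 measured genes of multiciliated cells fell in both tumour types, with an array mean of 7.24 to 8.80 in carcinoma, 7.27 to 7.53 in papilloma and 11.17 to 11.40 in normal tissue. The mean of the choroid epithelium markers was 12.46 to 12.79 in carcinoma, 12.57 to 12.82 in papilloma and 13.12 to 13.19 in normal tissue, and 4 of 8 fell in carcinoma and 5 of 8 in papilloma. Between carcinoma and papilloma 3 of the 9 multiciliated markers were higher and none lower (median difference 0.71), none of the 8 neuronal, 7 oligodendrocyte or 8 endothelial markers passed, 1 of 8 macrophage markers was higher, and of 8 meningeal and fibroblast markers 1 was higher and 1 lower. Against normal tissue, 6 of 8 endothelial markers rose in each tumour type, while fibroblast markers fell (5 of 8 in carcinoma, 7 of 8 in papilloma), as did oligodendrocyte markers (6 of 7 in carcinoma, 4 of 7 in papilloma) and some neuronal ones (3 of 8 in carcinoma, 1 of 8 in papilloma). Only 1 macrophage marker rose in carcinoma and 1 fibroblast marker rose in each tumour type. Of all genes, 18.7% rose and 19.2% fell in carcinoma, and 17.0% rose and 16.3% fell in papilloma. Between the tumour types 6.24% were higher and 5.17% lower in carcinoma. The share of neuronal markers that fell was below that of all genes in papilloma (12.5%) and above it in carcinoma (37.5%). The part of the marker shifts in the differences of the p53 target genes was not tested. Myc rose by 0.80 in carcinoma and 0.60 in papilloma over normal tissue, with 0.20 between them (95% interval -0.09 to 0.49).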

How the data were processed

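Total RNA from snap-frozen mouse tissue was measured on 15 single-channel Affymetrix arrays, 5 per group, and groups were taken from the sample titles. The deposited log2 values are RMA summaries per probe set made in Affymetrix Expression Console, per the submitters' processing notes. RMA subtracts background, gives the arrays a common distribution and summarises probes, which compresses changes of dim probe sets and removes global shifts. The genome build was not given in the sources used here. Of 41345 probe sets, 23521 were paired with 1 symbol, 1814 with several and 16010 with none. The set with the highest mean stood for each of the 1082 genes with more than 1. Of the 22180 genes, 21994 matched RefSeq (GRCm38.p6).

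Group means were modelled over all arrays, with no other term, in limma 3.58.1 (R 4.3.3, 12 residual and 3.35 prior degrees of freedom). The fitting code was tested on simulated data. Values per gene are means ± SD, and fold changes are the log2 differences turned to a linear scale. The number of arrays limits the precision, and p-values measure the spread between samples, for which the series names different mice and pooling is not settled. The replicate numbers were not used to pair samples, since the labels do not say that equal numbers mark the same animal or litter. Of 15 correlations between same-numbered arrays, 2 exceeded 0.1, which cannot settle whether the numbers pair samples. The members and lists were chosen with earlier results of these data known. Array values are given for members with the 5 largest rises and falls past the threshold per comparison. Of the other targets and regulators, Cdkn1a, Mdm4 and Cdkn2a were named by choice, and those with the 3 largest changes each way were eligible. Mdm2, Aen, Ccng1 and Gtse1 promoters were chosen for display after their matches and values were seen. Alternatives covered a replicate block, variance trend with robust moderation, array weights, only the groups compared, quantile normalization, a common median, a filter on dim genes, all probe sets, the mean of probe sets, chromosome-wide shifts, normal arrays 2 to 5 left out, and each array left out.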

Additional observations from a re-analysis of the deposited data

Results flagged for a closer look

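Of 102 groups of 5 arrays (34 genes in 3 groups), 9 held an array far from the other 4 by Dixon's test, which chance alone flags in about 1 in 20 groups. Papilloma array 1 stood apart for 4 genes, with 9.94 for Plk3, 11.62 for Btg2 and 8.00 for Epha2 above the other papillomas, and 10.15 for Ak1 below them. Papilloma array 4 was the low array for Mdm2 (10.09) and Rrm2b (8.87), and papilloma array 3 the high one for Tigar (9.38). Carcinoma array 2 was low for Ak1 (8.87), and normal array 4 was high for Mdm2 (11.01).

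Ccng1, Phlda3, Dcxr and Cdkn1a fell in carcinoma and rose in papilloma against the same normal arrays. As given above, the rise of Ccng1 and the fall of Dcxr were lost when some single arrays were left out. The difference between the tumour types, tested with limma, was -0.92 for Ccng1, -1.96 for Phlda3, -1.11 for Dcxr and -2.87 for Cdkn1a, each past the adjusted threshold. Since the genes were picked for opposite calls in the same fit, passing here follows from that choice and is no separate support.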

How the results depend on the processing

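Of the calls among the 34 genes, 15 of 17 between carcinoma and papilloma were kept under all 25 alternatives, and 11 of 22 in papilloma and 8 of 27 in carcinoma against normal tissue under all 26. No call reversed. Using normal array 1 alone ended most others: 3 genes were then higher and 5 lower in carcinoma, and 9 higher and 2 lower in papilloma. That setting rests on 1 normal array, so fewer samples were tested. It was left out of the 25 alternatives between carcinoma and papilloma, where it also changed the number of genes lower. The count of genes higher in carcinoma than in papilloma became 2 with array quality weights, with dim genes left out and with chromosome-wide shifts removed, which added Gtse1. Leaving out each array gave 12 to 13 higher and 13 to 15 lower in carcinoma against normal tissue, 15 to 17 and 5 to 7 in papilloma against normal tissue, and 1 to 3 and 15 to 18 in carcinoma against papilloma. With the replicate block the counts were 13 and 13, 16 and 6, and 1 and 16. Whether the numbers pair samples is not known (correlations of same-numbered arrays -0.0962 to 0.136). The block ended the calls of Dcxr in carcinoma against normal tissue (adjusted p = 0.0519) and Ei24 between the tumour types (0.062), and added Slc19a2 there (0.0229). Signs turned only for differences that passed in neither case. These were Tigar in carcinoma against normal tissue (-0.0034) and Cdkn2a in papilloma (-0.0416), both without normal arrays 2 to 5. Between carcinoma and papilloma, leaving out single arrays gave -0.0706 to 0.0086 for Rrm2b (above 0 without carcinoma array 3), -0.114 to 0.0946 for Tigar (above 0 without carcinoma array 4, and 0.0082 without papilloma array 3) and -0.0459 to 0.137 for Dgka (below 0 without papilloma array 1). The cause was not tested.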
